A study of Mus musculus with 2 samples.

Results

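The 4 genes for ubiquitin ligases of striated muscle (Trim63, Trim55, Trim54 and Fbxo32) and the 6 genes of the removal of mitochondria by autophagy (Pink1, Bnip3, Bnip3l, Fundc1, Sqstm1 and Map1lc3b) were described in heart RNA. They were chosen by gene symbol, and all 10 were found among the 55536 mouse genes of the deposited gene tables. The RNA came from 2 adult female B6CASTF1/J mice, F1 hybrids with a C57BL/6J and a CAST/EiJ genome, at an age of 8 to 10 months, and was measured by sequencing of total RNA with 1 library from each heart. The animals formed 1 group with no treatment, no altered allele and no second tissue. The labels number the animals 1 (called replicate 1 here) and 3 (replicate 2), although they give both the same donor identifier. Values are means ± SD over both animals (n = 2) unless an animal is named. With 2 animals in 1 group no test between groups exists, and no p-value is given.

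Muscle proteins that are marked with ubiquitin are degraded by the proteasome, and the ligase decides which protein is marked. Trim63, Trim55 and Trim54 encode the RING-finger ligases MuRF1, MuRF2 and MuRF3, which associate with the sarcomere and with microtubules. Fbxo32 encodes atrogin-1, the F-box subunit that brings substrates to an SCF ligase. Mitochondria are removed by a route in which the kinase PINK1 marks damaged organelles with phosphate on ubiquitin, and by receptors of the outer membrane that bind LC3 directly. BNIP3, NIX (the product of Bnip3l) and FUNDC1 are such receptors, p62 (the product of Sqstm1) is a receptor for ubiquitin-marked cargo, and Map1lc3b encodes LC3B, which is bound to the growing autophagosome membrane.

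Depth was 42223411 expected counts in replicate 1 and 40553237 in replicate 2. All 8 cardiomyocyte markers were at 1 TPM (transcripts per 1000000, a level per length) or more in both animals, from 9141 TPM for Myl2 to 399.7 TPM for Ryr2. Of 10 skeletal muscle markers 6 were at 1 TPM or more in both, the highest being Mylpf at 5.14 TPM, and the list summed to 21.6 TPM in replicate 1 and 22.3 in replicate 2. Myod1 was listed at 0.00 and 0.02 TPM. In RNA of a whole tissue, fewer cells of a type and less RNA per cell cannot be told apart.

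All 10 genes were at 1 TPM or more in both animals, where 20.9% of all genes and 48.7% of protein-coding genes were. Their median was 86.7 TPM in replicate 1 and 79.2 TPM in replicate 2, beside a median of 7.97 TPM over the 10721 protein-coding genes at 1 TPM or more in both. Pink1 was the highest and Fundc1 the lowest of them. Pink1 stood above 98.3% of those protein-coding genes, Bnip3l above 91.1%, Fbxo32 above 84.0% and Fundc1 above 54.0%. The 10 genes together made up 1103 TPM in replicate 1 and 961 TPM in replicate 2.

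**Figure D1:**
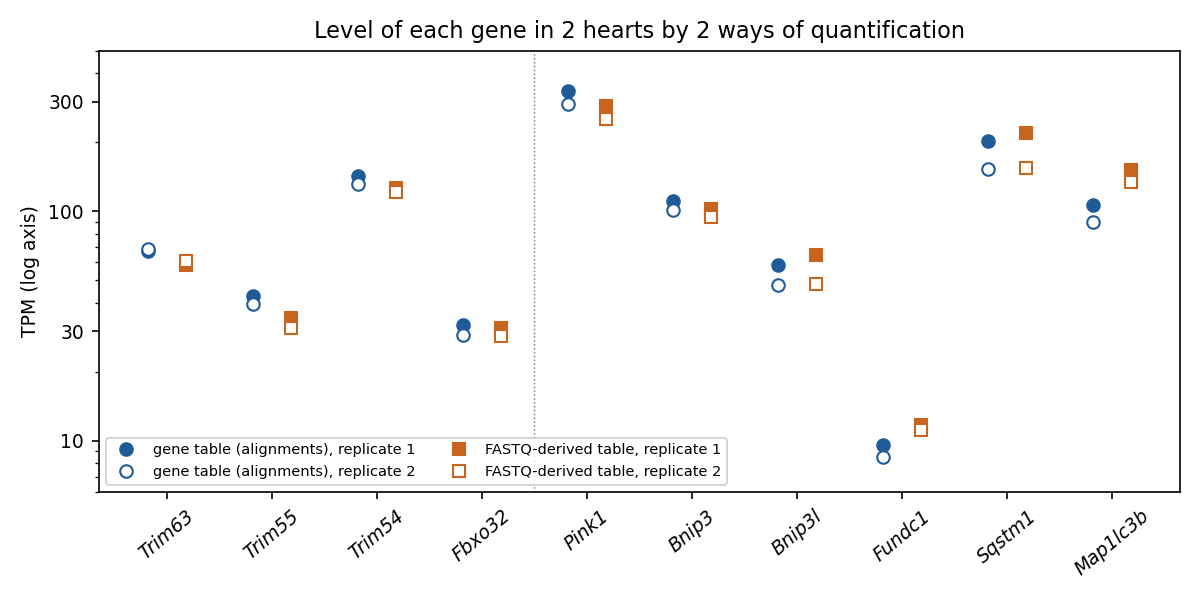
Level of each gene in TPM (log axis) in replicate 1 (filled) and replicate 2 (open), from the gene table (circles) and from the FASTQ-derived transcript table summed to genes (squares); the dotted line parts the ligases from the mitophagy genes. Pink1 lies at the top at 332 and 292 TPM and Fundc1 at the bottom at 9.60 and 8.49 TPM, and Map1lc3b is the gene whose squares lie farthest above its circles.

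Among the ligases, Trim54 (chr5:31116712-31137630, plus strand, mm10) had the highest level. It stood at 142 TPM in replicate 1 and 132 TPM in replicate 2, from 6375 and 5961 expected counts (137 ± 7.22 TPM). Trim63 (chr4:134315120-134329629, plus strand) stood at 67.2 and 68.6 TPM (67.9 ± 1.02), and Trim55 (chr3:19644474-19692421, plus strand) at 42.8 and 39.3 TPM (41.1 ± 2.44). Fbxo32 (chr15:58175879-58214932, minus strand) stood at 31.8 and 29.1 TPM (30.4 ± 1.97). The 4 ranges did not overlap, so the order Trim54, Trim63, Trim55, Fbxo32 was the same in both hearts.

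The ratios between the ligases varied little between the animals. Trim54 exceeded Trim55 by 1.73 and 1.74 on the log2 scale of TPM + 0.01, a 3.34-fold difference. Trim54 exceeded Trim63 by 1.08 in replicate 1 and 0.94 in replicate 2, so that this ratio was on both sides of 2-fold. Trim63 exceeded Trim55 by 0.73 ± 0.11, which is 1.65-fold, and Fbxo32 by 1.16 ± 0.12, which is 2.23-fold. In the FASTQ-derived table Trim63 exceeded Fbxo32 by 0.92 and 1.08, on both sides of 2-fold. Over coding transcripts only, Trim63 exceeded Trim55 2.27-fold from alignments and 1.97-fold from the FASTQ file. Trim54 exceeded Trim55 4.63-fold and 4.14-fold in the same way. In expected counts, which are not per length, Fbxo32 had 7366 and 6771, more than any of the 3 Trim genes and less only than Pink1 and Sqstm1. Its only transcript model, Fbxo32-201, has 6976 bases, where Trim54-201 has 1434.

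Of the 4 ligases, 3 were measured almost wholly on 1 coding transcript in both ways of quantification. Trim63-202 took 98.8% ± 0.633 of the gene's TPM in the table derived from alignments and 98.8% ± 0.334 in that derived from the FASTQ file. Trim54-201 took 99.8% and 97.8%, and Fbxo32 has no other model. Trim55 differed. The noncoding Trim55-202 is a model of 506 bases with 3 exons. It took 27.9% ± 2.32 of TPM in the first table and 8.24% ± 0.653 in the second. In expected counts it had only 153 of the gene's 2802 in replicate 1 and 160 of 2504 in replicate 2, in the first table. The coding model Trim55-201 stood at nearly the same level in both tables, at 31.6 and 27.7 TPM in the first and 31.6 and 28.4 in the second. Over coding transcripts only, Trim55 and Fbxo32 overlapped in the table from alignments (29.6 ± 2.71 and 30.4 ± 1.97 TPM).

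Pink1 (chr4:138313409-138326307, minus strand) was the highest of the 10 genes, at 332 TPM in replicate 1 and 292 TPM in replicate 2 (312 ± 28.7), from 22392 and 19679 counts. It ranked 181 among 22028 protein-coding genes. No other of the 10 genes overlapped its range in either table.

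All Pink1 transcript models are coding, but the tables shared the reads among them differently. Pink1-201, the model of 8 exons with 1740 coding bases before the stop, took 69.2% ± 1.03 of TPM from alignments and 90.3% ± 0.383 from the FASTQ file. Pink1-202, which begins within intron 5 and has 504 annotated coding bases, took 30.8% and 9.71%. In TPM it stood at 99.9 and 91.9 in the first table and at 28.6 and 23.9 in the second, so both animals lay on the same side. The edge that parts them is shown as 30 bases on the minus strand, with the last 15 bases before exon 6 in capitals. The capitals come from exon 5 (chr4:138317305-138317319) in Pink1-201 and from the intron (chr4:138316132-138316146) in Pink1-202, and both go on at chr4:138316117-138316131.
Pink1-201: TGGAGTGGGACTCAGatggctgtccctggc
Pink1-202: GCCGCCTCTCTGCAGatggctgtccctggc

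Of the receptors of the outer membrane, Bnip3 (chr7:138890836-138909519, minus strand) stood at 111 and 102 TPM (106 ± 6.28). Bnip3l (chr14:66985239-67008877, minus strand) stood at 58.4 and 47.7 TPM (53.0 ± 7.60). Fundc1 (chrX:17556564-17572325, minus strand) stood at 9.60 and 8.49 TPM, from 593 and 542 counts (9.05 ± 0.785). The 3 ranges did not overlap. Bnip3 exceeded Bnip3l by 0.92 and 1.09 on the log2 scale and Fundc1 by 3.52 and 3.58, that is 2.01-fold and 11.7-fold in the mean.

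Bnip3l was the only one of the 10 genes with most of its TPM on noncoding transcripts, in both tables and both animals, which held for 4.89% of 9855 protein-coding genes with at least 2 models. Its coding transcripts, Bnip3l-201 and Bnip3l-202, summed to 11.1 TPM in replicate 1 and 9.83 TPM in replicate 2, which is 19.8% ± 1.204 of the gene. The FASTQ-derived table gave 11.3 and 10.3 TPM, or 19.5% ± 2.60. Most of the rest lay on a pair of short models annotated as processed transcripts. Bnip3l-205, of 789 bases, stood at 23.9 and 19.7 TPM (41.1% of the gene), and Bnip3l-207, of 492 bases, at 19.5 and 16.5 TPM (33.9%). The FASTQ-derived shares of these models were 37.8% and 31.05%.

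In counts the picture of Bnip3l was the other way round. The coding models, of 3238 and 3259 bases, took 1170 of 2017 expected counts in replicate 1 and 1051 of 1749 in replicate 2, a mean of 59.0%. Per length, Bnip3 exceeded Bnip3l by 3.33 ± 0.04 on the log2 scale over coding transcripts, which is 10.1-fold, and by 2.99 ± 0.03 in the FASTQ-derived table, which is 7.94-fold. The order of Bnip3l among the 10 genes moved with it. Over all transcripts it stood above Trim55 and Fbxo32 in both tables. By coding TPM it stood below both, and above Fundc1 in the table from alignments but below Fundc1 in the FASTQ-derived one, where Fundc1 had 11.8 and 10.7 TPM.

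The short Bnip3l models rest on little sequence of their own. Of the 759 words of 31 bases in Bnip3l-205, 31 occur in no other model of the gene, and of the 462 in Bnip3l-207, 90 do. The junctions at the first exons of these models are shown on the minus strand beside those of the coding models, with the last 15 bases of the upstream exon in capitals. The first pair leads into exon 2 of Bnip3l-201 at chr14:66999690-66999704, from chr14:67008688-67008702 in Bnip3l-201 and from chr14:66999814-66999828 in Bnip3l-207.
Bnip3l-201, exons 1 and 2: CCGCTGGCCTCAACAgttcctgggtggagc
Bnip3l-207, exons 1 and 2: TGGCTTCTGTTTGAGgttcctgggtggagc
The second pair leads into exon 4 of Bnip3l-201 at chr14:66989495-66989509, from chr14:66993877-66993891 in Bnip3l-201 and from chr14:66989810-66989824 in Bnip3l-205.
Bnip3l-201, exons 3 and 4: GACCACAGCTCTCAGtcagaagaagaagtt
Bnip3l-205, exons 1 and 2: CCCATCTCCTTTTTGtcagaagaagaagtt
Among the models of the gene, the junction of exons 1 and 2 of Bnip3l-201 is held by both coding models alone, and the junctions shown for Bnip3l-207 and Bnip3l-205 by those models alone. The junction of exons 3 and 4 of Bnip3l-201 is held by 5 models, of which Bnip3l-204, Bnip3l-206 and Bnip3l-207 are noncoding. Reads over single junctions were not analysed here.

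**Figure D2:**
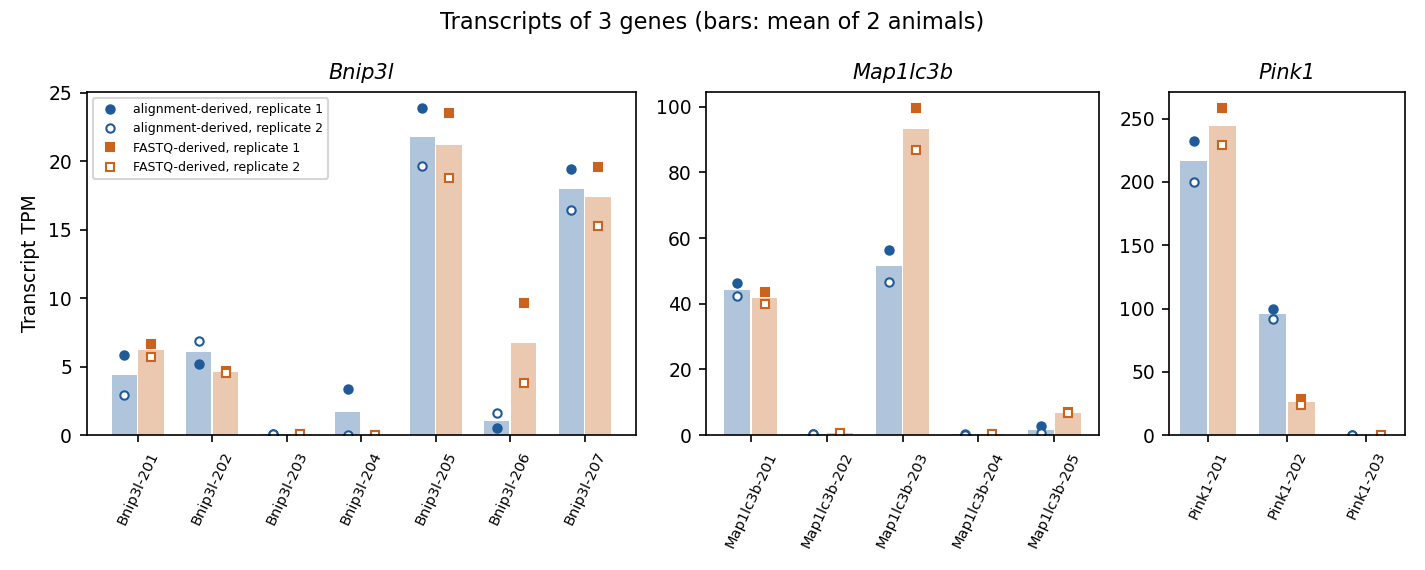
TPM of each transcript model of Bnip3l, Map1lc3b and Pink1 in the alignment-derived (blue) and FASTQ-derived (orange) tables; bars are means of 2 animals, filled points replicate 1 and open points replicate 2. Bnip3l-205 and Bnip3l-207 stand above both coding models in either table, Map1lc3b-203 rises from 51.5 TPM in the first table to 93.1 in the second, and Pink1-202 falls from 95.9 to 26.3.

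Within the coding models of Bnip3l the order changed between animals. Bnip3l-201 stood at 5.84 TPM in replicate 1 and 2.96 in replicate 2, and Bnip3l-202 at 5.21 and 6.87. The FASTQ-derived table put Bnip3l-201 above Bnip3l-202 in both. The models differ by a 42-base exon and by where they begin, and Bnip3l-201 has 21 words that no other Bnip3l model holds.

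Bnip3 and Fundc1 were measured mainly on their first coding models. From alignments Bnip3-201 took 87.3% ± 3.13 of TPM and from the FASTQ file 82.2% ± 4.83. The retained-intron model Bnip3-205 took 0.546% and 10.3%. Fundc1-201 took 97.5% in the first table and 59.2% in the second, where Fundc1-205, also coding, took 39.0% ± 0.654. Fundc1-205 has 17 words of its own and 336 annotated coding bases beside the 465 of Fundc1-201.

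Sqstm1 (chr11:50199366-50210827, minus strand) was second of the 10 genes, at 202 TPM in replicate 1 and 153 TPM in replicate 2 (178 ± 35.1). Both libraries placed it below Pink1 and above Trim54. Nbr1, another receptor for ubiquitin-marked cargo, stood at 34.7 and 29.2 TPM. Sqstm1 exceeded it by 2.55 and 2.39 on the log2 scale, a 5.53-fold difference. Sqstm1-202 was the main model in both tables, with 85.3% and 81.6%, and the retained-intron model Sqstm1-206 took 3.07% ± 0.272 and 11.7% ± 6.79.

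Map1lc3b (chr8:121590361-121598760, plus strand) stood at 106 and 89.9 TPM in the gene table (98.0 ± 11.5), a range that overlapped that of Bnip3. In the FASTQ-derived table it stood at 151 and 134 TPM (143 ± 11.9), above Trim54. It was 1.46-fold higher there, the largest such ratio among the 10 genes. Its relative Map1lc3a, which encodes LC3A, stood at 295 and 248 TPM, so Map1lc3b lay below it by 1.47 on the log2 scale in both animals (-1.47 ± 0.01). On coding transcripts alone the direction turned: Map1lc3b stood at 106 and 89.6 TPM and Map1lc3a at 74.1 and 73.1 TPM, a log2 ratio of 0.40 ± 0.16 from alignments and 0.41 ± 0.08 from the FASTQ file. The noncoding models Map1lc3a-202 and Map1lc3a-203 held 32.3% and 40.4% of Map1lc3a in the alignment-derived table and 5.47% and 61.9% in the FASTQ-derived one, where Map1lc3a-202 stood at 0.50 TPM in replicate 1 and 32.9 in replicate 2.

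The main Map1lc3b transcript by TPM has a shorter annotated reading frame than Map1lc3b-201. Map1lc3b-203 took 52.5% ± 0.974 of TPM from alignments and 65.3% ± 0.909 from the FASTQ file. It begins at another first exon and has 198 annotated coding bases, where Map1lc3b-201 has 375 and took 45.3% and 29.4%. In expected counts Map1lc3b-201 had the more, with 3787 and 3489 against 1281 and 1064. Both models join exon 2 at chr8:121593490-121593504, from chr8:121590550-121590564 in Map1lc3b-201 and from chr8:121590909-121590923 in Map1lc3b-203. Among the models of the gene, the junction shown for Map1lc3b-201 is also held by the retained-intron model Map1lc3b-202 and by Map1lc3b-205. That shown for Map1lc3b-203 is held by Map1lc3b-203 alone. The last 15 bases of each first exon are in capitals, and 30 of the 745 words of Map1lc3b-203 occur in no other model of the gene.
Map1lc3b-201: AGCGCCGGAGCTTTGaacaaagagtggaag
Map1lc3b-203: GTCTTGGGCATATGTaacaaagagtggaag

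**Figure D3:**
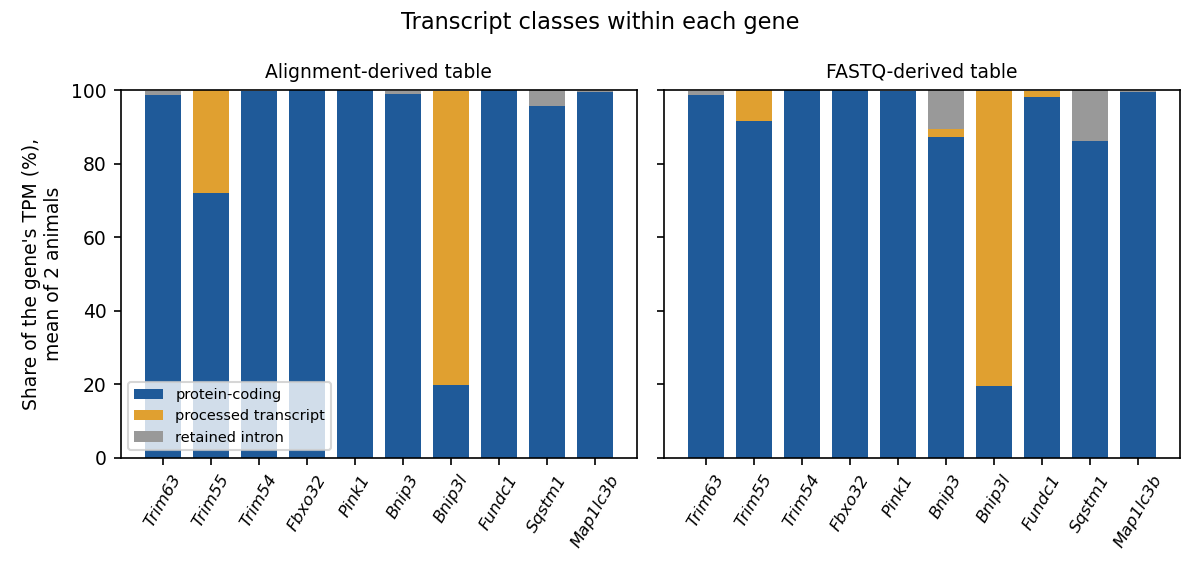
Share of each gene's TPM on protein-coding, processed and retained-intron transcripts (percent, mean of 2 animals) in the alignment-derived and FASTQ-derived tables. Bnip3l stands apart with 19.8% and 19.5% on coding transcripts, while Trim55 has 72.1% and 91.8%, Sqstm1 95.6% and 86.1%, and Bnip3 99.2% and 87.3%.

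All 10 genes had the same main transcript in both tables and both animals, a count that includes Fbxo32 with its single model; 70.0% of protein-coding genes with at least 2 models did. None of the 10 was 2-fold apart between the tables in both animals, where 5.21% of 12380 genes were, and none was 1.5-fold apart, where 7.36% were. The main isoform of Bnip3l by this measure is the noncoding Bnip3l-205.

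Several of the genes share sequence with other genes, pseudogenes among them, which bears on how reads could be assigned. Of the words of 31 bases, Bnip3 shared 20.3% with other genes, Bnip3l 23.7%, Map1lc3b 7.77%, Pink1 4.46%, Fbxo32 1.76%, Trim63 0.352% and Trim55 0.266%. Trim54, Fundc1 and Sqstm1 shared none. Of the 119 shared words of Pink1, 80 lie in Gm27646, a miRNA gene within Pink1 on the same strand. The shared words of Fbxo32 were spread over 1732 other genes and those of Map1lc3b over 1283. Expected counts were whole to within 0.005 in both libraries for 7 of the 10 genes, beside 86.0% of expressed protein-coding genes; the exceptions were Bnip3, Bnip3l and Map1lc3b.

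The pseudogenes were themselves listed with levels that differed between the tables. Gm16439, which holds 400 of the 2255 words of Bnip3, stood at 31.5 and 27.6 TPM in the gene table and at 24.8 and 20.6 in the FASTQ-derived one. Gm14506, with 59 words of Bnip3, was listed at 0.00 and 0.07 TPM in the gene table and at 11.7 and 9.77 in the other. Summed with both, Bnip3 was at 142 and 129 TPM in the gene table and 138 and 125 in the FASTQ-derived one. Gm6055, which shares 317 words with Map1lc3b, stood at 22.6 and 19.4 TPM in the gene table and was listed at 0 in the other. Map1lc3b and Gm6055 together stood at 129 and 109 TPM in the gene table against 151 and 134, a ratio of 1.198 in place of 1.46. In expected counts Gm6055 had 211 and 183, on a model of 378 bases, beside 5214 and 4618 for Map1lc3b. TPM is per length, so sums over models of unlike length do not show what reassigned reads would add. Whether reads of these genes were assigned to one another was not tested. Bnip3l-ps, with 914 words of Bnip3l, stood at 1.41 and 0.61 TPM in the gene table and at 3.63 and 4.98 in the FASTQ-derived one, so the order of the animals turned.

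The animals differed little in these genes, as in most genes compared. Uncentred, 9 of the 10 had a lower TPM in replicate 2, as had 79.3% of the 11876 genes compared, and the median shift of all genes was -0.18 on the log2 scale. After centring on that shift, 6 were higher and 4 lower in replicate 2, with a median of 0.03 beside 0 over all genes compared. With expected counts scaled by edgeR or DESeq2 size factors, Map1lc3b turned from lower to higher, at 0.00 on the log2 scale. None was 2-fold apart, where 1.41% of genes were. All 10 lay within 1.2-fold, as did 73.6% of the genes compared. The shares of 1.41% and 73.6% are over genes of all levels, and genes as high as the 10 were not counted separately.

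Trim63 and Sqstm1 lay at the ends of this range. The centred log2 ratio of TPM + 0.1, replicate 2 over replicate 1, was 0.21 for Trim63 and -0.22 for Sqstm1. The latter came from 12534 and 9541 counts. In the FASTQ-derived table Sqstm1 was at -0.35. There its retained-intron model Sqstm1-206 stood at 35.9 and 10.6 TPM, and its coding models at 180 and 139 TPM. In the gene table Bnip3l followed at -0.11 and Map1lc3b at -0.06, and the other 6 lay from -0.00 for Pink1 to 0.08 for Trim54. The deposited credibility bounds, which surround the posterior mean TPM, did not overlap between the animals for 7 of the 10, where 28.0% of genes compared were so. They ran from 194 to 207 TPM and from 145 to 157 TPM for Sqstm1. They overlapped for Trim63, Trim55 and Fundc1. The bounds are of TPM before centring, so the shift of all genes between the libraries enters them. Pink1, at -0.00 after centring, was among the 7, and Trim63, at 0.21, was not. The 28.0% is over genes of all levels, and genes as high as the 10 were not counted separately. These bounds do not cover variation between animals, and with 1 library for each animal the differences have no replicate check.

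**Figure D4:**
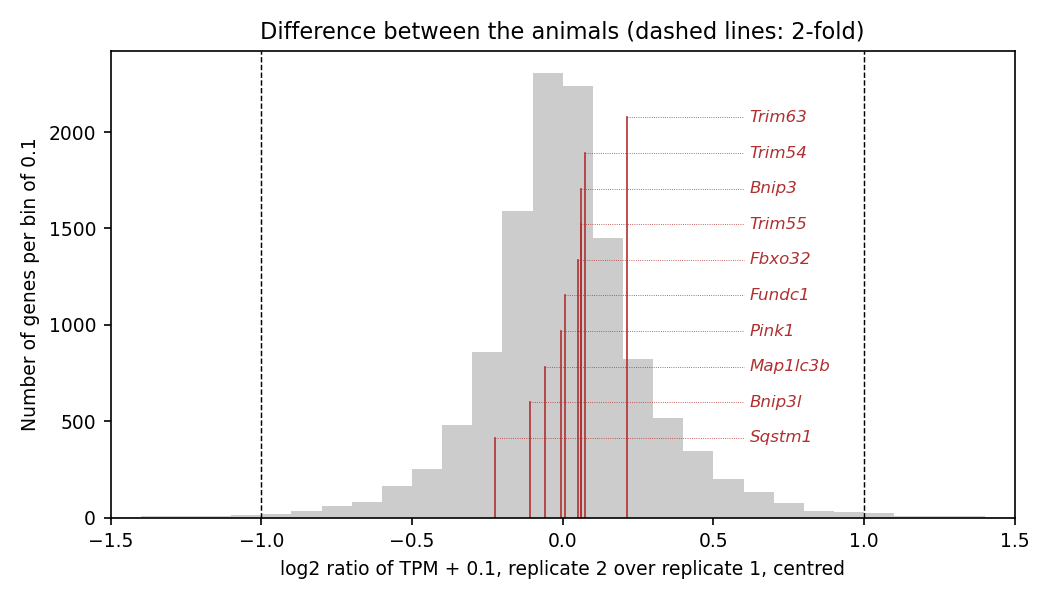
Histogram of the centred log2 ratio of TPM + 0.1, replicate 2 over replicate 1, over 11876 genes (grey bars, bins of 0.1), with the 10 genes as red lines whose heights serve only to part the names. All 10 lie between -0.22 for Sqstm1 and 0.21 for Trim63, inside the dashed lines at 2-fold.

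Markers of other cells differed between the animals too. Red blood cell markers summed to 3479 TPM in replicate 1 and 2255 in replicate 2, and all 5 compared were lower in replicate 2 after centring, with a median of -0.43; Slc4a1, the lowest, was listed at 1.00 and 0.07 TPM. Bnip3l, which is needed for the loss of mitochondria in maturing red blood cells, had a centred ratio of -0.11, which was -0.03 with counts scaled by edgeR or DESeq2 size factors and -0.26 in the FASTQ-derived table. Endothelial markers were lower in replicate 2 for 6 of 8 compared, with a median of -0.09, and fibroblast markers for 6 of 7, with a median of -0.13. Macrophage markers were lower for 3 of 7, with a median of 0.03. Cardiomyocyte markers, for comparison, were lower for 3 of 8, with a median of 0.01, from -0.28 for Actc1 to 0.13 for Tnnt2. All 7 skeletal muscle markers compared were higher in replicate 2, with a median of 0.23, from 0.01 for Pvalb to 0.62 for Actn3. Among the ligases of striated muscle, Trim63 had 0.21, while Trim54, Trim55 and Fbxo32 had 0.08, 0.06 and 0.05. The part of these cells in the values of Bnip3l and the ligases was not tested.

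Genes of the same pathways were described by 9 lists with 106 entries, of which 103 were at 1 TPM or more in both animals. The median over all of them was 22.7 TPM, below the 82.9 TPM of the 10 genes. Of the 104 compared between the animals, 1 was 2-fold apart, beside 1.41% of all genes compared. It was Foxo6, at 0.83 and 1.62 TPM from 70 and 138 counts (1.07 on the centred log2 scale), and it was no longer called with a pseudocount of 1 or without centring.

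Around the ligases, all 11 SCF subunits and ubiquitin enzymes were at 1 TPM or more, with a median of 30.9 ± 0.064 TPM. Ube2d3, a ubiquitin-conjugating enzyme, stood at 115 ± 9.96 TPM and Uba1, the activating enzyme, at 87.4 ± 10.1. All 15 other ligases described in striated muscle were expressed, with a median of 14.7 ± 1.64 TPM. Asb2, a substrate receptor of cullin ligases, stood at 214 and 168 TPM, above each of the 4 muscle ligases described here. Nedd4, a HECT ligase, stood at 134 and 121 TPM, a range that overlapped that of Trim54.

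Of 13 transcription factors reported to act on these genes, 11 reached 1 TPM in both hearts, and the list's median was 14.6 ± 0.262 TPM. Epas1, which encodes HIF-2alpha, stood at 85.3 ± 10.1 TPM and the coactivator gene Ppargc1a at 35.3 ± 5.38. Myog, a factor of skeletal muscle, was at 0.02 and 0.00 TPM, from 1 count in replicate 1 and 0 in replicate 2. At the depth of replicate 2, no count leaves room for a level of up to 0.0740 counts per 1000000.

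All 12 listed genes of the PINK1 route were expressed, with a median of 31.3 ± 1.199 TPM. The mitofusin genes Mfn2 and Mfn1, whose products fuse outer membranes, were the highest at 268 ± 38.0 and 149 ± 21.5 TPM. Pink1 itself lay above both in each animal. Of 12 other mitophagy genes 11 were expressed (median 27.8 ± 2.89 TPM). Nipsnap2 stood at 365 and 316 TPM and its paralogue Nipsnap1 at 0.19 and 0.32 TPM, and Fundc2 stood at 63.1 ± 7.79 TPM, above Fundc1.

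The other 4 genes of the ATG8 family had a median of 94.7 ± 8.00 TPM, with Gabarap at 125 ± 1.66 TPM second to Map1lc3a. The 6 other cargo receptors had a median of 31.1 ± 1.61 TPM, the highest being Calcoco1 at 44.0 ± 3.46 and Tax1bp1 at 38.4 ± 6.80, so Sqstm1 stood above all of them. The 25 genes of the autophagy core were all expressed but lower, with a median of 7.91 ± 0.502 TPM, close to that of expressed protein-coding genes. The highest, Wipi1, reached 39.5 ± 1.36 TPM, and the protease gene Atg4d 31.9 ± 1.54. Lysosomal genes had a median of 84.4 ± 5.80 TPM, with Ctsd at 366 ± 39.4 and Lamp1 at 148 ± 18.2.

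**Figure D5:**
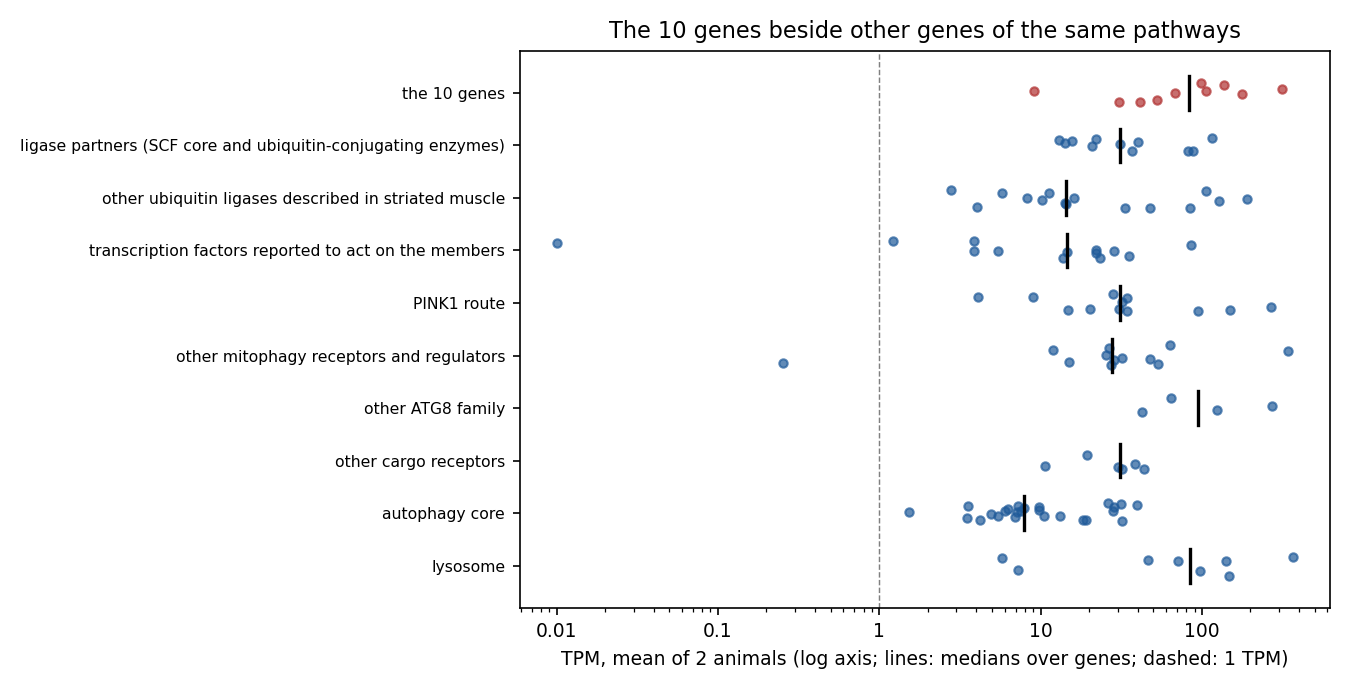
TPM of each gene (mean of 2 animals, log axis) for the 10 genes (red) and 9 lists of other genes of the same pathways (blue); black lines are medians of these means and the dashed line is 1 TPM. The 10 genes and the ATG8 family and lysosome lists have medians of 82.9, 94.7 and 84.4 TPM, while the autophagy core lies near 8 TPM; Myog is drawn at 0.010 TPM.

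By level in both libraries, the protein-coding genes nearest to Trim54 were Ppp1cb, at 147 and 131 TPM, and Rpl17, at 141 and 137 TPM, with summed absolute log2 differences of 0.058 and 0.061. Nearest to Pink1 were Casq2, at 338 and 291 TPM, and Pgam2, at 338 and 297 TPM, with 0.027 and 0.050. The likeness rests on 2 libraries.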

How the data were processed

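Heart RNA of 2 animals was sequenced with a directional kit from 300 ng of total RNA, per the labels' protocols. The deposited description files name mm10 and GENCODE M21; for the tools, the sources used here give no name. The authors' gene and transcript tables, from alignments, hold expected counts, TPM, FPKM and isoform percent, per the file headers. The authors' other transcript table, made from a FASTQ file, has columns of estimated counts and of TPM. The credibility level is not given. The reference is the C57BL/6J genome, so reads of the CAST/EiJ allele may be assigned less well.

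FASTQ-derived TPM and the TPM of alignment-derived transcripts were summed to genes. Genes averaging at least 1 TPM, with 20 or more expected counts in all, were compared between the animals, with 0.1 added to TPM, and a difference of 2-fold was called. Words of 31 bases came from the GENCODE M21 transcripts. Counts of 0 were given a limit of 3 counts, which covers counting error only, since reads without identifiers of molecules can be copies of 1 molecule. Size factors came from edgeR 4.0.16 and DESeq2 1.42.0, with Python 3.11.15 and R 4.3.3, on the deposited counts as alternatives; no count test was run. Named genes of the pathway lists are the 2 highest of each list, those under 1 TPM in both animals and those called 2-fold apart. Named markers are the highest or lowest of their list, by level or by the ratio between the animals. Slc4a1, Map1lc3a-202 and Map1lc3a-203 were picked with their values in view. From the pathway lists, 1 gene and its pair ratio are not reported here. The 10 genes, lists and thresholds were chosen with earlier results of these data known.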

Additional observations from a re-analysis of the deposited data

How the results depend on the processing

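Over 9 summary results and single values, 241 alternative values were computed, of which 177 moved by less than the spread between the animals, the counting error or, for counts of genes, 1.5-fold, 63 moved by more and 1 turned the direction of a pair ratio past 2-fold. That ratio, Map1lc3b over Map1lc3a on the log2 scale, turned to 0.40 over protein-coding transcripts only, an alternative chosen after seeing the data. Part of the 177 was fixed in advance and tells nothing about stability. With 2 animals, leaving out 1 always moves a mean by less than their SD. This holds for the levels of the 10 genes and the ratios of the 8 pairs without either replicate. FPKM is TPM times a constant in each library, so its 8 pair ratios could hardly move either. The median level of the 10 genes became 67.6 in FPKM and 234 when TPM was rescaled over nuclear protein-coding genes, both by construction of the unit. The median ratio between the animals turned from 0.03 to -0.15 without centring, where 5 genes changed sign (Bnip3, Fbxo32, Fundc1, Trim54 and Trim55). Map1lc3b changed sign with either kind of size factor and Fundc1 without the filter on low genes; none of these ratios reached 2-fold. Of the pathway genes, 1 was 2-fold apart, and 0 were with a pseudocount of 1 or without centring, alternatives added after seeing the data. Of 8 gene pairs 5 differed at least 2-fold in each animal, 4 in the FASTQ-derived table and 6 over coding transcripts. Without replicate 1 or without replicate 2 the median level lay between 79.2 and 86.7 TPM, 6 pairs were past 2-fold in either animal alone, and all 10 genes stayed at 1 TPM or more. All 10 were at 5 TPM or more too. With shares over coding transcripts only, 9 genes kept 1 main isoform in both tables and animals; the exception was Bnip3l. No paired analysis was possible because the series has 1 group. Depth limits Fundc1 most, with 542 counts in replicate 2.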

Other observations

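Other genes overlap the 10 in the annotation. The readthrough gene Gm20388 spans Map1lc3b on the same strand and was listed at 1.53 and 2.92 TPM in the gene table and at 4.85 and 5.66 TPM in the FASTQ-derived one. Zcchc14, whose end overlaps that of Map1lc3b on the opposite strand, stood at 9.68 and 8.74 TPM. Mrnip, which overlaps Sqstm1 from the opposite strand, stood at 0.60 and 0.93 TPM. BC002189, within an intron of Trim55 on the same strand, stood at 1.43 and 1.01 TPM. The antisense genes Gm15469 at Trim54, Gm15943 at Fbxo32 and Gm45507 at Bnip3 were each listed at 0.07 TPM or less in both animals. The library kit marks strand, and the sources used here do not say whether the counting used it.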
